A study of Mus musculus with 6 samples.

Results

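The 8 genes of cholesterol synthesis and its feedback control, Hmgcs1, Idi1, Fdps, Fdft1, Sqle, Lss, Cyp51 and Insig1, were followed in erythroid precursors of mice in which Cre targets Rb, the gene of the retinoblastoma protein. They were chosen by name, and every probe set annotated to them was taken, 21 of the 45032 probe sets used and 8 of the 18192 genes on the array. The working name of the group also mentions uptake, but none of the 8 is an uptake gene. All but Insig1, a regulator, encode enzymes. Probe sets are groups of short probes that report 1 transcript, and 17 of the 21 had a mean signal above the filter on low values described below, with at least 1 for each of the 8 genes. The filter kept probe sets whose mean over the 6 arrays lay above the 40th percentile, an intensity of about 18.9.

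The cells were bone marrow cells of mice that carried Ter-119, which marks the red cell lineage, and CD71, the receptor for transferrin. Expression was measured on 6 single-colour Affymetrix mouse arrays, 3 labelled as mutant and called Rb-null here, and 3 labelled as control. The Rb-null mice were EpoR-GFPcre/+; Rb fl/fl, so that a Cre recombinase expressed from the erythropoietin receptor gene acts on both Rb alleles. The controls were EpoR-GFPcre/+; Rb fl/+, and therefore carried the same Cre and a floxed allele too. No label gives the age of the animals or says that arrays of a group came from separate animals, so the p-values rest on a spread between arrays that may be technical. Rb1 signal did not check the labels, since it was not lower in the mutant. Its bright probe set read 4045, 3670 and 2897 on Rb-null arrays 1, 2 and 3 and 2760, 2152 and 1379 on control arrays 1, 2 and 3, so the array labelled Rb-null was the brighter in every pair, with a log2 fold change of 0.75 (SE 0.32, limma adjusted p = 1.00). No source used here places the probe set relative to the floxed part.

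Cholesterol is built from acetyl-CoA through mevalonate, isoprenoid diphosphates, squalene and lanosterol. The genes of this route are switched on together by SREBP2, a transcription factor held in the endoplasmic reticulum while sterols are plentiful. There it is bound to its escort Scap, and Insig proteins anchor the complex. When sterols run low, SREBP2 is released, cut and moves to the nucleus, where it binds sterol regulatory elements beside NF-Y, the factor that reads the CCAAT box. Insig1 is itself a target, which closes a feedback loop. Erythroid precursors divide quickly and need membrane, and their later forms give up organelles as they mature.

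The promoters of 3 of the genes are shown, chosen for their log2 fold changes, Rb-null over control, of 1.23 (SE 0.50) for Insig1, 0.57 (SE 0.39) for Idi1 and -0.37 (SE 0.37) for Hmgcs1. None of these passed limma's test, and the genes were not tested against each other. RefSeq promoter windows (GRCm38.p6), 250 bases before to 50 after the annotated start, were matched for 5 of the 8 genes, namely Hmgcs1, Idi1, Lss, Cyp51 and Insig1. They are printed 5′ to 3′ on the strand of the gene, chr5:28071162-28071461 for Insig1, chr13:8885356-8885655 for Idi1 and chr13:119690101-119690400 for Hmgcs1, all on the plus strand. Capitals mark CCAAT, also where it is read on the other strand as ATTGG, and 1 form of the sterol regulatory element, TCACNCCAC.
Insig1: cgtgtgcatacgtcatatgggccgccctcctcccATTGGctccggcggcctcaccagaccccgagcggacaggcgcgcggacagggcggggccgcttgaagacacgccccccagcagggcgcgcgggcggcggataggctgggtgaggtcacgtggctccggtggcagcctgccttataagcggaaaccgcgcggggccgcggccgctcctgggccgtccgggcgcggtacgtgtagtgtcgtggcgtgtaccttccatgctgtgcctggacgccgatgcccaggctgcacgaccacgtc
Idi1: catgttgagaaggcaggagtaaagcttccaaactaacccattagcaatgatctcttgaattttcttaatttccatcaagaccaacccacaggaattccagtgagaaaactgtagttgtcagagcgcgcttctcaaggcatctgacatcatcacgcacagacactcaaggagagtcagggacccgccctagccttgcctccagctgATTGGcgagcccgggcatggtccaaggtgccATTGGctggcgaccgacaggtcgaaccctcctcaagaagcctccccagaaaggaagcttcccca
Hmgcs1: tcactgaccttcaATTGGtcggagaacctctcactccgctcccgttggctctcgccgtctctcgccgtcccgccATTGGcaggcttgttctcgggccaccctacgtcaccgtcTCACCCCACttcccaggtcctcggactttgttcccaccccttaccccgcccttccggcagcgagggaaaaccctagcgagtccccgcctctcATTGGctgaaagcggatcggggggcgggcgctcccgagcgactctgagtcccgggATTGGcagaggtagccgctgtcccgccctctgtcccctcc
CCAAT on either strand was found in all 5 windows, against 37.4% of the 32851 windows in the table, and the GC box GGGCGG was also found in all 5, against 35.7%. TCACNCCAC, on either strand, was found in 1 of the 5, that of Hmgcs1, from base -137 to base -129 counted from the start, against 1.24% of all windows. The palindromic E-box CACGTG was found in the Insig1 window only, from base -101 to base -96, against 7.15% of all windows. The motifs are separate from each other at these places, and a match says only that the letters are there.

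Insig1, Fdft1 and Sqle read about 2-fold higher in Rb-null cells than in controls, while Hmgcs1, Fdps, Lss and Cyp51 lay near or below their control level, and Idi1 lay between these groups. Of the 8 genes, each read on its probe set with the highest mean, 4 were higher and 4 lower on average. Fold changes are Rb-null over control, from log2(intensity + 16) after quantile normalization, so they understate the change of dim probe sets. The median log2 fold change of the 8 was 0.19, against -0.04 over the 13232 genes past the filter. None of the 17 probe sets passed limma's moderated test, fitted over all probe sets past the filter, at a Benjamini-Hochberg adjusted p under 0.05 (0 of 17 in either direction, and likewise 0% of all 27019 probe sets fitted). At an unadjusted p under 0.05, 3 of the 8 genes were higher, Insig1, Fdft1 and Sqle, against 2.43% of all genes higher, and 0 of the 8 lower, against 1.43% of all genes. The count of 3 depended on single arrays and settings, and in each setting a gene was read on the probe set brightest there. It was 0 without Rb-null array 2, 1 (Fdft1) without Rb-null array 1, without control array 3, with the deposited scaling or with an offset of 1, and 2 (Fdft1 and Insig1) without control array 1 or with median centring. Without control array 2 it was 3 with Idi1 in place of Fdft1. Without Rb-null array 2 or control array 2, Fdft1 was read on another probe set. Its brightest probe set over all arrays, 1448130_at, had limma unadjusted p = 0.026 and 0.0017 there (adjusted p = 0.999 and 0.780). The unadjusted p of 1448130_at was under 0.05 in every setting tried.

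**Figure D1:**
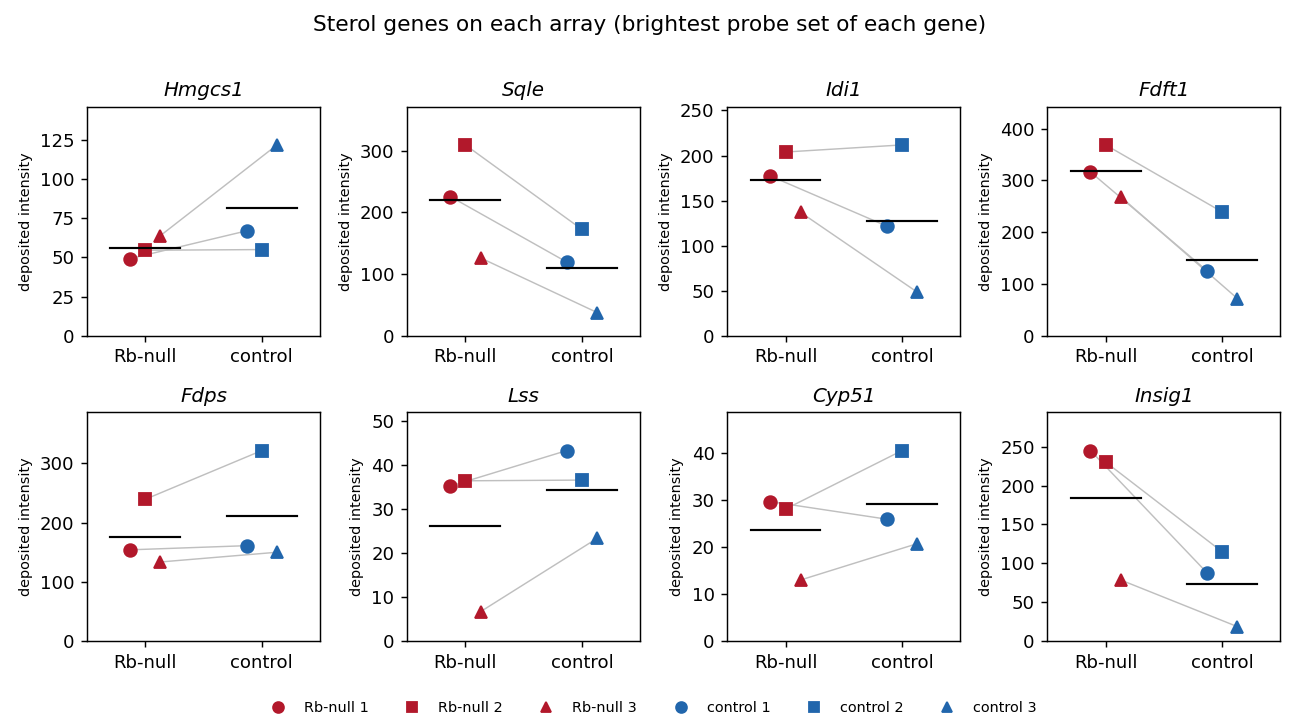
Deposited intensity (linear scale, arbitrary units) of the probe set with the highest mean for each of the 8 genes, with Rb-null arrays on the left and control arrays on the right of each panel. Symbols give the replicate number, grey lines join arrays of the same number and black bars are group means of 3 arrays; for Sqle, Fdft1 and Insig1 the Rb-null array lies above its control in each of the 3 pairs.

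Insig1 encodes the anchor that keeps SREBP2 and Scap in the endoplasmic reticulum when sterols are plentiful. Its single probe set read 245, 230 and 78.7 on Rb-null arrays 1, 2 and 3, and 87.9, 115 and 18.8 on control arrays 1, 2 and 3. Each Rb-null array exceeded the control array of the same number, but the groups overlapped, since Rb-null array 3 lay below control arrays 1 and 2. The means were 185 ± 92.0 in Rb-null cells and 73.9 ± 49.5 in controls (SD, n = 3 each). After normalization the log2 fold change was 1.23 (SE 0.50), a 2.35-fold higher signal, with differences of 1.35, 0.86 and 1.48 in pairs 1, 2 and 3 (limma adjusted p = 1.00). Without control array 3 the log2 fold change was 0.73.

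Fdft1 encodes squalene synthase, the enzyme that commits farnesyl diphosphate to sterols. Its probe set with the highest mean, 1448130_at, read 316, 368 and 268 on Rb-null arrays 1, 2 and 3, and 125, 239 and 71.7 on control arrays 1, 2 and 3. The lowest Rb-null value lay above the highest control value, which was the case, in this direction, for 1 of the 8 genes and 5.13% of all genes. No gene of the 8 was lower without overlap, against 4.78% of all genes. The means were 317 ± 50.2 in Rb-null cells and 145 ± 85.3 in controls (SD, n = 3 each), and the log2 fold change was 1.18 (SE 0.34, limma adjusted p = 0.771). Pair differences were 1.25, 0.55 and 1.73 in pairs 1, 2 and 3.

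The other Fdft1 probe sets differed in size. The almost equally bright 1438322_x_at read 453, 287 and 153 on Rb-null arrays 1, 2 and 3 and 204, 217 and 69.9 on control arrays 1, 2 and 3, a log2 fold change of 0.80 (SE 0.42), and 0.43 without control array 3. The dimmer 1438918_at had 0.48 (SE 0.39), and 0.075 without control array 3. For 1438919_x_at it was 0.10 (SE 0.36), and -0.10 without Rb-null array 3. Of these probe sets 1448130_at, 1438322_x_at and 1438918_at were higher in every pair, and 1438919_x_at was lower in pair 3. The suffix x marks probes that can match other transcripts, so those readings are less certain.

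Sqle encodes squalene epoxidase, which makes the first oxygenated intermediate of the sterol branch. Its single probe set read 226, 310 and 126 on Rb-null arrays 1, 2 and 3, and 119, 172 and 37.5 on control arrays 1, 2 and 3. It was higher in each pair, by 0.85, 0.75 and 1.44 on the log2 scale, while the groups overlapped. The means were 221 ± 91.9 in Rb-null cells and 110 ± 68.0 in controls (SD, n = 3 each), a log2 fold change of 1.01 (SE 0.43) and a 2.02-fold higher signal (limma adjusted p = 1.00). Without control array 3 it was 0.58.

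These 3 genes were also compared within replicate numbers. Arrays of the same number deviated together across the array, and a second fit took it as a block. With the block the SE of Insig1 was 0.18, that of Sqle 0.19 and that of Fdft1 0.25, and limma's adjusted p was 0.0999, 0.115 and 0.127. None of the 8 genes passed with the block, nor did any of all genes (0% in each direction). When a variance trend and robust moderation were added to the block, Insig1, Sqle and Fdft1 passed as higher (limma adjusted p = 0.0262, 0.0411 and 0.0472). That is 3 of the 8 genes, against 2.19% of all genes higher and 1.34% lower. This last fit was taken up with its effect on these arrays already known, and none of the other settings tried called any of the 8.

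**Figure D2:**
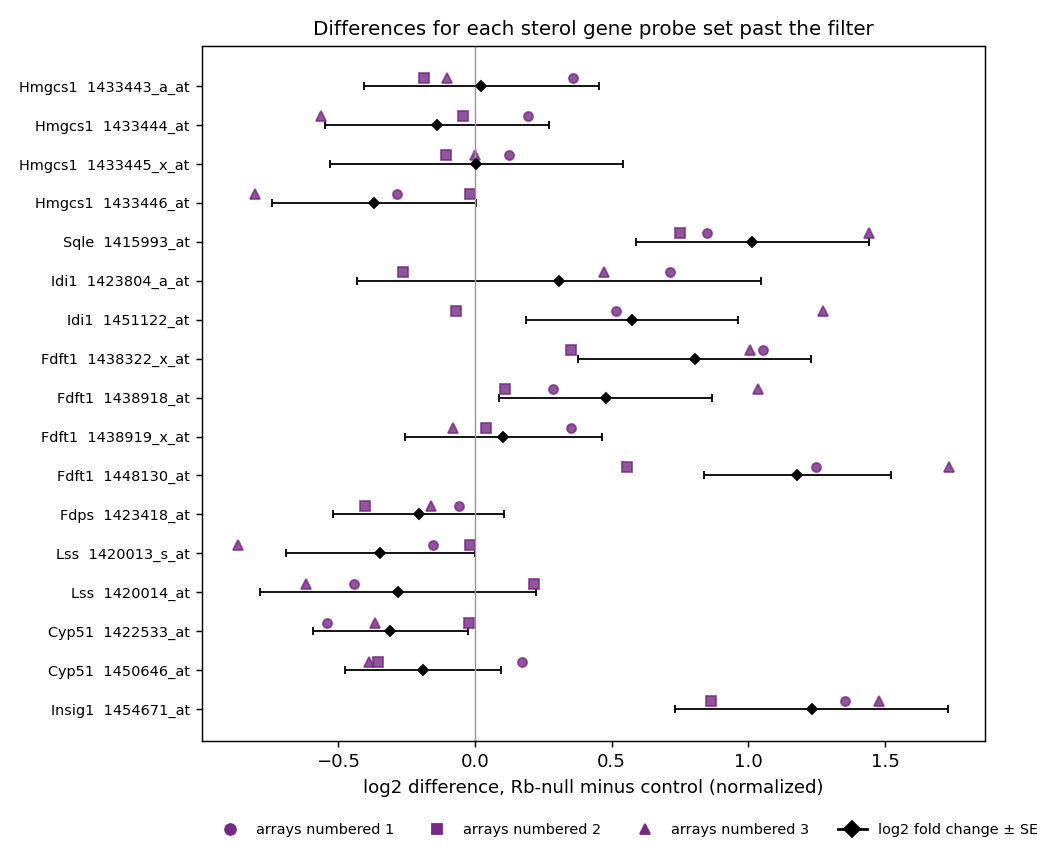
Log2 differences, Rb-null minus control, for the 17 probe sets past the filter. Purple symbols are the differences of arrays with the same number, and black diamonds are the log2 fold change with the SE of the fit without the block; the 3 purple symbols of Insig1, of Sqle and of Fdft1 1448130_at all lie to the right of 0.

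Idi1, the isomerase that makes the reactive isoprenoid unit, was higher in 2 of the 3 pairs. Its probe set with the highest mean read 177, 204 and 137 on Rb-null arrays 1, 2 and 3, and 122, 212 and 48.3 on control arrays 1, 2 and 3. The Rb-null array was clearly brighter in pairs 1 and 3 and about level with its control in pair 2. The log2 fold change was 0.57 (SE 0.39, limma adjusted p = 1.00), 0.18 without control array 3 and 0.93 without control array 2. The second probe set had 0.31 (SE 0.74) and read only 20.0 and 9.58 on the Rb-null and control arrays numbered 3, against 100 to 171 on the other 4 arrays.

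Hmgcs1, whose promoter above holds TCACNCCAC, encodes the cytosolic synthase that makes HMG-CoA, the entry to the mevalonate route. Its probe set with the highest mean, 1433446_at, read 49.3, 54.6 and 63.96 on Rb-null arrays 1, 2 and 3, and 67.0, 55.0 and 122 on control arrays 1, 2 and 3, a log2 fold change of -0.37 (SE 0.37). The values overlapped and the size of the difference came mainly from control array 3, without which it was 0.01, and without control array 2 it was -0.60. The other probe sets past the filter, 1433443_a_at, 1433444_at and 1433445_x_at, had 0.02 (SE 0.43), -0.14 (SE 0.41) and 0.01 (SE 0.53). Another, below the filter, never exceeded 13.8 and was higher in every pair, by 0.17, 0.31 and 0.013 in pairs 1, 2 and 3. No Hmgcs1 probe set past the filter was higher in all 3 pairs.

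Fdps encodes farnesyl diphosphate synthase, whose product feeds sterols and also protein prenylation, ubiquinone and heme A. Its bright probe set read 154, 239 and 134 on Rb-null arrays 1, 2 and 3, and 161, 322 and 150 on control arrays 1, 2 and 3. Each Rb-null array lay slightly below its control, with a log2 fold change of -0.21 (SE 0.31, limma adjusted p = 1.00), and the groups overlapped. Without control array 2 it was 0.042. The other probe set was below the filter and never exceeded 21.1.

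Lss, which closes the ring of lanosterol, and Cyp51, which removes a methyl group from lanosterol, were dim. The brighter Lss probe set read 35.1, 36.4 and 6.71 on Rb-null arrays 1, 2 and 3, and 43.2, 36.5 and 23.3 on control arrays 1, 2 and 3. Its log2 fold change was -0.35 (SE 0.35), and 0.005 without Rb-null array 3, so the difference rested on that array. The brighter Cyp51 probe set read 29.7, 28.2 and 13.1 on Rb-null arrays 1, 2 and 3 against 26.0, 40.6 and 20.8 on control arrays 1, 2 and 3, a log2 fold change of -0.19 (SE 0.28). It was -0.031 without Rb-null array 3 and -0.037 without control array 2, so either array decided its size. Second probe sets past the filter had -0.28 (SE 0.50) for Lss and -0.31 (SE 0.28) for Cyp51. Below the filter, another Cyp51 probe set never exceeded 14.05 and went the other way, higher in every pair, with a log2 difference of 0.29. Its groups overlapped as deposited but not after normalization. Another Lss probe set below the filter never exceeded 15.1, with -0.36 and pairs of mixed direction. The offset added before taking logs narrows differences at such low signal.

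By pairs, 3 of the 8 genes were higher in all 3 pairs, Insig1, Fdft1 and Sqle, against 18.4% of all genes. On the same reading 3 genes were lower in all 3 pairs, Hmgcs1, Fdps and Lss, against 24.1% of all genes. In pair 2, however, Hmgcs1 and Lss were about level with their controls, at -0.018 and -0.017. The other Hmgcs1 and Lss probe sets past the filter were of mixed direction over the pairs. The median over the 8 genes was 0.34, -0.02 and 0.56 in pairs 1, 2 and 3. Without both arrays numbered 3 the median was 0.16, and Insig1 had a log2 fold change of 1.12 (SE 0.23), Fdft1 0.91 (SE 0.31) and Sqle 0.81 (SE 0.26), none past limma's test (lowest adjusted p = 0.720). In that setting 2 of the 8 genes were higher at an unadjusted p under 0.05 on the probe set that was then brightest, Insig1 and Sqle, against 3.06% of all genes. The brightest Fdft1 probe set there was 1438322_x_at, at 0.70 (SE 0.30).

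The arrays numbered 3 stood apart for these genes in both groups. Of the 17 probe sets, 13 were dimmer on the arrays numbered 3 than on the other 4, with a median log2 difference of -0.66, against -0.02 over all probe sets fitted. The 18S ribosomal RNA control probe sets averaged 542 (Rb-null) and 1231 (control) on these arrays and 32.6 to 66.2 on the others, and the part of this in the dimmer signal was not tested. Probe sets of the same gene moved in opposite ways there. For Hmgcs1 the log2 differences, arrays 3 minus arrays 1 and 2, were -0.91, -0.91 and -1.45 for 1433443_a_at, 1433444_at and 1433445_x_at, but 0.80 for 1433446_at. For Fdft1, 1438919_x_at had 0.76 and the other probe sets -0.98 to -0.41.

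**Figure D3:**
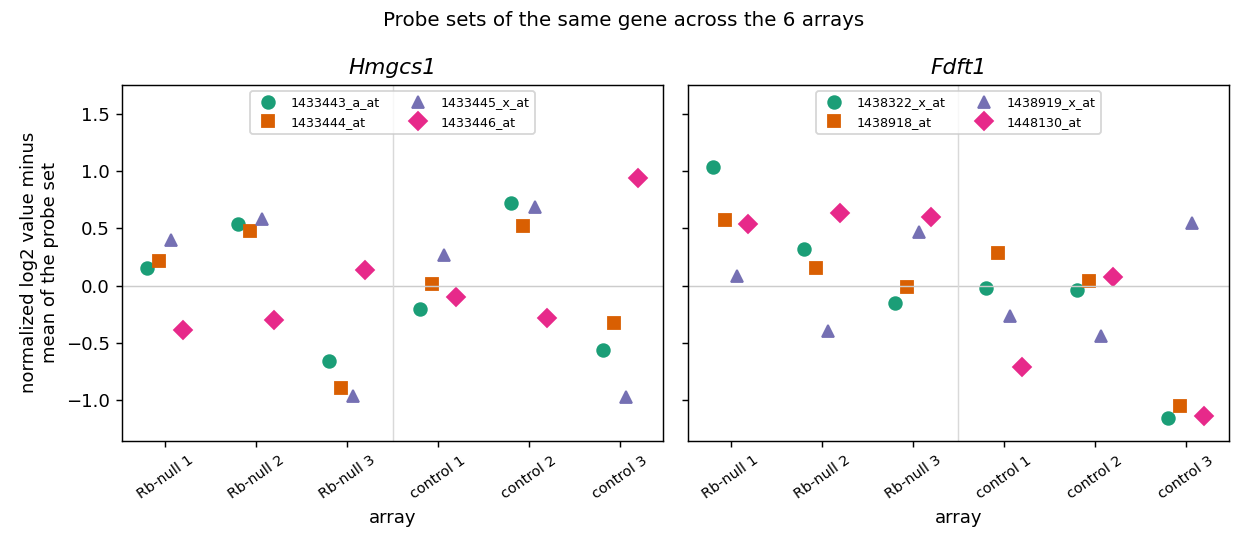
Normalized log2 value of each Hmgcs1 and Fdft1 probe set past the filter, minus its own mean over the 6 arrays, with Rb-null arrays left of control arrays. On both arrays numbered 3, Hmgcs1 1433446_at lies above 0 where the other Hmgcs1 probe sets lie below it, and Fdft1 1438919_x_at lies above the other Fdft1 probe sets on control array 3.

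Over the 6 arrays, Insig1 and Sqle followed each other closely (Pearson r = 0.97, n = 6 arrays), and Sqle with Fdft1 and with Idi1 gave 0.90 and 0.93. Sqle with Fdps, Lss and Cyp51 gave 0.17, 0.09 and 0.17, and Hmgcs1 on 1433446_at ran opposite to Sqle (r = -0.91). That probe set was brighter on the arrays numbered 3 (log2 difference 0.80), where Sqle was dimmer (-0.98). The other Hmgcs1 probe sets past the filter were dimmer there, as Sqle was, and their correlations were not computed. All these correlations are descriptions, since arrays share their number and their group. The genes outside the 8 whose values were most like the mean of the 8 were Arhgap39, Aunip, Nfx1, Ctps, which encodes a CTP synthase, and Esco2, which encodes a cohesin acetyltransferase, at r from 0.990 to 0.997 over 6 arrays. Of the 13224 other genes, 778 (5.88%) had an r of at least 0.8 and 76 (0.575%) one of at least 0.95. The log2 fold changes of these 5 ran from 0.27 to 0.87, and none passed limma's test.

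The rest of the pathway was of mixed sign. In the list of other cholesterol synthesis enzymes 11 genes passed the filter, of which 0 passed limma's test in either direction, 4 had a positive and 7 a negative log2 fold change, and the median was -0.12, or -0.34 without Rb-null array 1 and -0.0092 without Rb-null array 2. Mvk, mevalonate kinase, read 42.0, 47.8 and 3.60 on Rb-null arrays 1, 2 and 3 and 93.2, 51.8 and 128 on control arrays 1, 2 and 3. Its log2 fold change was -1.32 (SE 0.50), with -2.99 in pair 3 alone, and its second probe set had 0.15 (SE 0.34). Lbr, the lamin B receptor, whose membrane part reduces a sterol double bond, had 0.47 (SE 0.28) and was higher in every pair. It did not pass without the block or with the block alone (limma adjusted p = 1.00 and 0.244), and passed with the block, trend and robust moderation (limma adjusted p = 0.0419). Nsdhl, a sterol dehydrogenase, had -0.36 (SE 0.28). Ggps1, the geranylgeranyl diphosphate synthase that draws on the product of Fdps, had -0.36 (SE 0.25). Its other probe sets had -0.19 (SE 0.37), -1.47 (SE 0.41) and -1.02 (SE 0.26). The last 2 were larger but did not pass limma's test (adjusted p = 0.742 and 0.652). After normalization 2 of the 11 genes were lower without overlap, Mvk and Ggps1, each on its probe set with the highest mean, against 4.78% of all genes. None was higher without overlap, against 5.13%.

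The machinery that controls SREBP2 showed small differences. Of 9 genes past the filter 0 passed limma's test in either direction, 3 were positive and 6 negative, and the median was -0.20, or -0.30 without control array 3 and -0.12 without Rb-null array 3. Insig2, the partner of Insig1 that is not driven by SREBP2 in the same way, had 0.27 (SE 0.26). The lipid raft protein of the endoplasmic reticulum Erlin2 had -0.44 (SE 0.27), the protease Mbtps2 -0.35 (SE 0.33) and the ubiquitin ligase Rnf139 -0.25 (SE 0.28). Another Rnf139 probe set had the opposite sign, 0.22 (SE 0.37). The transcription factors themselves and the escort, named here for their role after their values were seen, were near their control level, with Srebf2 at 0.05 (SE 0.34), Srebf1 at -0.15 (SE 0.29) and Scap at -0.20 (SE 0.34). These are transcript levels, whereas SREBP2 is regulated by cleavage of the protein.

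Genes of cholesterol uptake, transport, storage and efflux had a median of -0.24 over 15 genes past the filter, 3 positive and 12 negative, and 0 passed limma's test in either direction. The median was -0.39 without Rb-null array 2, -0.16 without Rb-null array 3 and -0.10 without both arrays numbered 3. Stard4, a sterol carrier of the cytosol and a known SREBP2 target, had the highest log2 fold change of the list. It read 552, 525 and 212 on Rb-null arrays 1, 2 and 3, and 313, 343 and 61.2 on control arrays 1, 2 and 3, higher in each pair with overlapping groups, a log2 fold change of 0.96 (SE 0.54). Its other probe sets had 1.30 (SE 0.37) and 0.37 (SE 0.26). Npc2, which hands cholesterol out of lysosomes, had -0.54 (SE 0.29), with its other probe sets at -0.43 and 0.21. Stard5, another sterol carrier, had -0.44 (SE 0.29), and Mylip, a ligase that is switched on by sterols and lowers lipoprotein uptake, had -0.44 (SE 0.30). Npc2, Stard5 and Mylip were lower in every pair, as were 5 of the 15 genes, against 24.1% of all genes. In pair 2 Npc2 and Stard5 were about level, at -0.024 and -0.0055. After normalization 2 of the 15 genes, Npc2 and Stard5, were lower without overlap, against 4.78% of all genes. None was higher without overlap, against 5.13%.

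Fatty acid synthesis, which the related factor SREBP1 drives, was mixed. Over 18 genes the median was -0.13, with 8 positive and 10 negative, and 0 passed limma's test in either direction. The median was 0.085 without Rb-null array 3. Mid1ip1, which activates acetyl-CoA carboxylase, read 1322, 1430 and 1388 on Rb-null arrays 1, 2 and 3, and 460, 656 and 514 on control arrays 1, 2 and 3. The groups did not overlap and the pair differences were 1.42, 1.10 and 1.33, with a log2 fold change of 1.28 (SE 0.26, limma adjusted p = 0.478, and 0.0141 with the block, trend and robust moderation). Scd1, the stearoyl-CoA desaturase, had -1.43 (SE 0.60) and was lower in every pair. The citrate carrier Slc25a1 had -0.70 (SE 0.38) and was also lower in every pair. The desaturase Fads2 had -0.48 (SE 0.34), with its other probe sets at 0.13 and -0.64.

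The non-sterol isoprenoid branch, which takes farnesyl and geranylgeranyl units to proteins, dolichol, ubiquinone and heme A, had a median of -0.30 over 12 genes, 2 positive and 10 negative, and 0 passed limma's test in either direction. The median was -0.48 without Rb-null array 1 and -0.20 without Rb-null array 3. Coq2 of ubiquinone synthesis had -0.62 (SE 0.46) and the farnesyltransferase subunit Fntb -0.62 (SE 0.42), both lower in every pair. Srd5a3 of dolichol synthesis had -0.49 (SE 0.31), with its other probe sets at -0.18, 0.30 and -0.11.

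**Figure D4:**
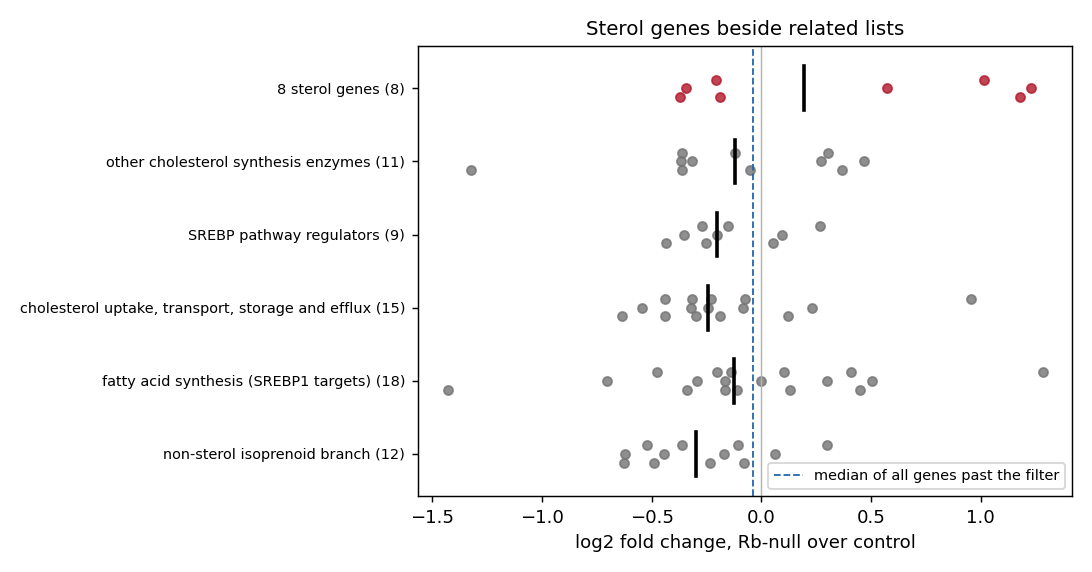
Log2 fold change, Rb-null over control, of each gene past the filter in the 8 sterol genes (red) and in 5 related lists (grey), with the number of genes in brackets. Black bars are list medians and the dashed line is the median of all genes past the filter, -0.04; the 8 genes split into 4 above 0 and 4 below it.

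Markers of other cells were read beside these results, since the sort can hold other bone marrow cells, and in a bulk sample fewer cells of a type and less RNA per cell cannot be told apart. The summed signal of 9 erythroid markers was 38571 to 45425 on Rb-null arrays and 38273 to 39958 on control arrays. The 14 granulocyte markers summed to 26980 to 54035 on Rb-null arrays and 36406 to 53629 on control arrays, and their median log2 fold change was -0.45. For 10 macrophage and monocyte markers the sums were 1470 to 1842 on Rb-null arrays and 1713 to 2877 on control arrays. For 8 B cell markers they were 316 to 506 on Rb-null arrays and 521 to 864 on control arrays, without overlap. The T and NK cell list summed to 282 to 423 on Rb-null arrays and 373 to 405 on control arrays, the megakaryocyte list to 302 to 354 on Rb-null and 335 to 553 on control arrays, and the mast cell, basophil and eosinophil list to 289 to 1353 on Rb-null and 367 to 1572 on control arrays. Of these lists 3 of 6, 4 of 5 and 7 of 8 genes on the array were past the filter. For the erythroid and B cell lists it was 8 of 9 and 7 of 8, and for the others all. No marker of any list was at 0 on any array. Over the markers past the filter, the median log2 fold change was 0.04 for the erythroid list and negative for every other list. It was -0.32 for macrophage and monocyte, -0.50 for B cell and -0.28 for T and NK cell markers. For the megakaryocyte list and the mast cell, basophil and eosinophil list it was -0.29 and -0.33. The part of these other cells in the differences of the sterol genes was not tested.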

How the data were processed

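Expression in sorted CD71 and Ter-119 bone marrow cells was measured on 3 Rb-null and 3 control arrays, grouped and numbered by their titles. Trizol and QIAGEN columns gave the RNA, and biotin the label, per the labels. What was deposited is 1 linear intensity for each probe set and array, and no source used here says how the authors computed it from the scans.

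Of 45101 probe sets, 64 controls, 4 empty ones and 1 with a value above the scanner range of 65535 were left out. Names came from the platform annotation, with 34941 of 45032 probe sets carrying 1 gene, 932 several and 9159 none. Values were transformed as log2(value + 16) and quantile normalized, since array medians differed by up to 0.264. All probe sets whose mean exceeded the 40th percentile (log2 5.13, or 18.9 as intensity) were fitted together in R 4.3.3 with limma 3.58.1, 2-sided, with Benjamini-Hochberg adjustment over all 27019 and a threshold of 0.05. A gene was read on its probe set with the highest mean, and 46.2% of the 5415 genes with several had probe sets of opposite sign. The number of arrays limits the precision, and an exact permutation test of 3 against 3 cannot go below p = 0.1. The fit was also run on simulated data, with changes added only to probe sets above the median signal, and no result here rests on that.

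Deviations from the group mean of same-numbered arrays correlated at 0.639, 0.621 and 0.667 across probe sets, and at most at 0.0719 between numbers, and a second fit took the number as a block. No source used here says what it stands for. The members, lists and tests were chosen with earlier results of these data known. Named genes are the 8, up to 4 of each list with the smallest p, and the 5 most like their mean, with Srebf2, Srebf1 and Scap added after their values were seen. Genes of a list without a named probe set were not analysed here. Alternatives covered the block, normalization, offset, filter, array weights, 1 probe set per gene and left-out arrays.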

Additional observations from a re-analysis of the deposited data

How the results depend on the processing

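Under 17 alternatives limma called 0 probe sets in each but 1, the replicate block with a variance trend and robust moderation, which called 938 of 27019, among them those of Insig1, Sqle and Fdft1 (1119 had an unadjusted p under 0.05 without the block and 4458 with it). The replicate block alone changed no call. The median log2 fold change of the 8 genes was 0.79 with the filter at the 60th percentile, where 6 genes were left, 0.079 with array weights, and ran from 0.10 to 0.49 when single arrays were left out. Insig1, Sqle, Fdft1 1448130_at and Idi1 1451122_at were higher in Rb-null cells under every alternative, and 9 of the 17 probe sets kept their direction wherever they passed the filter. The others changed sign when single arrays were left out, with ranges of -0.25 to 0.39 for Hmgcs1 1433443_a_at, -0.41 to 0.28 for 1433444_at, -0.48 to 0.50 for 1433445_x_at and -0.60 to 0.0086 for 1433446_at. Those of Idi1 1423804_a_at were -0.44 to 0.98, of Fdft1 1438919_x_at -0.10 to 0.40, of Fdps 1423418_at -0.37 to 0.042 and of Lss 1420013_s_at -0.52 to 0.0048. Hmgcs1 1433444_at was 0.011 with array weights and 0.078 without both arrays numbered 3, and 1433445_x_at was -0.0016 with deposited scaling and -0.0011 with median centring. The fatty acid list ran from -0.17 to 0.085 when single arrays were left out. The cause was not tested. Signals near the filter, as for Lss and Cyp51, limit what can be seen of those genes.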
